A study of Rattus norvegicus with 2 samples.

Results

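The genes described here are 4 of the 23282 genes in the deposited table, chosen by symbol for their roles in the undifferentiated stem cell. They are Pou5f1, which encodes the transcription factor Oct4, its DNA-binding partner Sox2, and the target genes Utf1 and L1td1. Each had 1 row in the table. RNA sequencing measured their levels in embryonic stem cells of the rat (Rattus norvegicus), from the wild-type DA-EC8/Rrrc line, of the Dark Agouti strain, at passage 30 and with a karyotype labelled normal. The cells were untreated and were grown in 2i medium, which holds inhibitors of the kinases MEK and GSK3, so both libraries share that condition. The 2 libraries form 1 group and are called biological replicates by the study, which does not say in the sources used here whether they came from separate cultures. No other condition or cell type was measured, so the values show how high the genes stand in these cells and how closely the replicates match, not how they respond to anything.

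Oct4 belongs to the POU family of homeodomain proteins and binds an octamer in DNA. Sox2 carries an HMG box and often binds beside Oct4 on a joint sequence, and the pair holds pluripotency genes, their own genes included, in the active state. Utf1 is a chromatin-bound protein of undifferentiated cells, and its gene is a classic target of the pair through an enhancer downstream of the coding sequence. L1td1 is an RNA-binding protein derived from the first open reading frame of a LINE-1 retrotransposon, and its gene is bound by Oct4 and Sox2 in embryonic stem cells. These relations are background, since binding was not measured here.

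The proximal promoters of 3 of the 4 genes are shown because Oct4, Sox2 and general promoter factors act through short DNA words. Each sequence is the 250 bases before the RefSeq start of the gene on the GRCr8 build, 5′ to 3′ on the strand of the gene, which is the plus strand for all 3. The positions are chr2:119464881-119465130 for Sox2, chr1:204169704-204169953 for Utf1 and chr5:118488438-118488687 for L1td1. Capitals mark matches to the motifs searched, on either strand.
Sox2: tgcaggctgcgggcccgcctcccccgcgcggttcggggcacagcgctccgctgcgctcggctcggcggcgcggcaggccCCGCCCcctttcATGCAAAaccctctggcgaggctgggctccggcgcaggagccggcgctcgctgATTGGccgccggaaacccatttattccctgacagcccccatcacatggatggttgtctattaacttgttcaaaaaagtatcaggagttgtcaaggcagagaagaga
Utf1: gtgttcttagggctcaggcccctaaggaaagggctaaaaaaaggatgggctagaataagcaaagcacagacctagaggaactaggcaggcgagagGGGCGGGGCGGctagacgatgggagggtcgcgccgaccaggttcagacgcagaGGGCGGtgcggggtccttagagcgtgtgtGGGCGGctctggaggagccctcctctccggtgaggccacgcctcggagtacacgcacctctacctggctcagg
L1td1: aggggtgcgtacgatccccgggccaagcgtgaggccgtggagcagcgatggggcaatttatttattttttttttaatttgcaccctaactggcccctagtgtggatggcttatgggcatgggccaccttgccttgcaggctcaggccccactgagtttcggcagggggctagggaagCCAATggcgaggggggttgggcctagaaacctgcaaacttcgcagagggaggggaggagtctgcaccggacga
The motifs were the octamer ATGCAAAT, its shorter core ATGCAAA, which every octamer match also holds, the SOX word CATTGT, the GC box GGGCGG, the CCAAT box CCAAT and the TATA box TATAAA. The Sox2 promoter held the octamer core, from 159 to 153 bases upstream of the start, with a GC box at 171 to 166 bases on the other strand and a CCAAT box at 106 to 102 bases, also on the other strand. The core was found in 3.96% of the 27457 promoters of this length in the RefSeq table, and the full octamer, which none of the 3 promoters held, in 1.50%. The Utf1 promoter held 4 GC boxes and no other motif of the set. The first 2 of these boxes share 1 base, at 155 to 150 and 150 to 145 bases upstream, and a GC box is found in 32.4% of all promoters. The L1td1 promoter held only a CCAAT box, at 73 to 69 bases upstream, a motif of 34.3% of promoters. No SOX word and no TATA box was found in the 3 windows, against 10.9% and 13.1% of all promoters. The Sox2 window was 64.4% G and C with 23 CpG dinucleotides, the Utf1 window 62.8% with 16, and the L1td1 window 58.8% with 11, against medians of 52.0% and 6 over all promoters. A match is a run of letters and not a measured binding site, and the start used by the gene model behind the L1td1 level, a computer prediction on the older rn5 build, may differ from the one shown.

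All 4 genes were among the highest of the table, in the order Utf1, Pou5f1, L1td1, Sox2 in both replicates. Levels are in RPKM, the number of reads for each kilobase of a gene model and each 1000000 reads of the library, so they are compared between genes per length. Only 4.0% of all genes averaged 100 RPKM or more, and all 4 of these did. The median over all genes was 0.539 RPKM. A gene averaging 1 RPKM or more is here called detected, which 10814 genes were, and their median was 16.7 RPKM.

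Utf1 (Entrez gene 681901, rn5 chromosome 1, 219200178 to 219201304, plus strand) measured 645 RPKM in the first replicate and 665 RPKM in the second. Its mean of 655 ± 14.1 RPKM (SD, n = 2) was the 37th highest of all genes. Pou5f1 (Entrez gene 294562, rn5 chromosome 20, 5833973 to 5838736, minus strand) measured 591 RPKM in the first replicate and 577 RPKM in the second. Its mean of 584 ± 9.94 RPKM (SD, n = 2) ranked 45, the rank it also held in each replicate alone. These first 2 genes of the set thus stood in the top 0.159% and 0.193% of the table, and 39.3 and 35.0 times above the median detected gene.

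L1td1 (Entrez gene 685355, rn5 chromosome 5, 121295915 to 121302133, plus strand) measured 206 RPKM in the first replicate and 205 RPKM in the second. Its mean of 206 ± 0.999 RPKM (SD, n = 2) ranked 304. Sox2 (Entrez gene 499593, rn5 chromosome 2, 140810593 to 140813001, plus strand) measured 175 RPKM in the first replicate and 180.4 RPKM in the second. Its mean of 177 ± 4.13 RPKM (SD, n = 2) ranked 395, with 411 in replicate 1 and 389 in replicate 2. L1td1 and Sox2 stood in the top 1.31% and 1.70% of the table, and 12.3 and 10.6 times above the median detected gene.

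**Figure D1:**
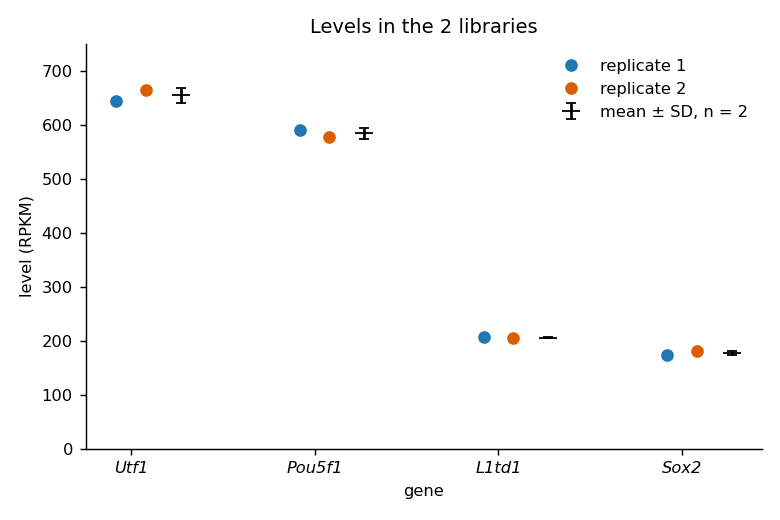
Level in RPKM (vertical axis, from 0) of the 4 genes, with 1 point for each of the 2 libraries and the mean ± SD beside them. Utf1 and Pou5f1 lie between 577 and 665 RPKM and L1td1 and Sox2 between 175 and 206 RPKM, and no gene's points overlap those of another.

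**Figure D2:**
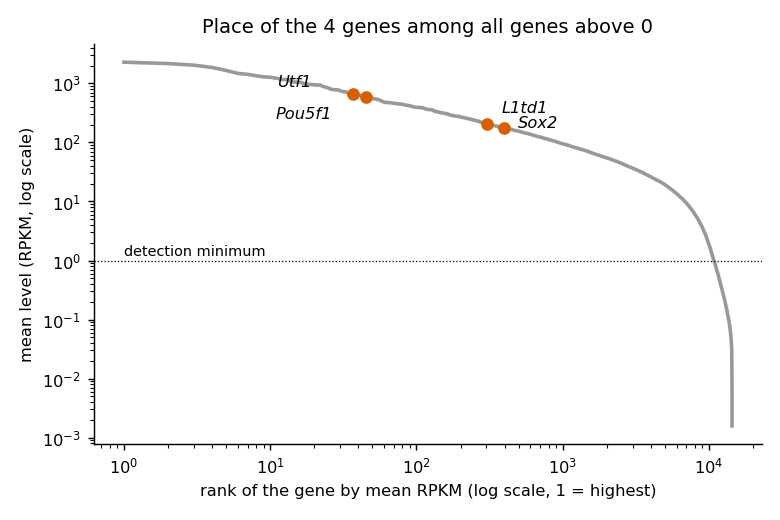
Mean level in RPKM (vertical axis) against rank by mean RPKM (horizontal axis) for all genes above 0, both axes on a log scale. The 4 genes sit at ranks 37, 45, 304 and 395, far above the dotted line at 1 RPKM.

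The values of neighbours in this order did not overlap between the replicates, although 2 samples in 1 group allow no test. Utf1 exceeded Pou5f1 by 0.12 in replicate 1 and 0.20 in replicate 2 on the log2(RPKM + 1) scale, a mean difference of 0.16 ± 0.06 (SD, n = 2). L1td1 exceeded Sox2 by 0.24 and 0.18, a mean of 0.21 ± 0.04. Both gaps are larger than the spread between the replicates but small beside the step between Pou5f1 and L1td1, which was 1.50 ± 0.02. That spread does not cover what both libraries share, such as the model length that RPKM divides by. Those lengths were not resolved for Utf1, Pou5f1 or Sox2. Oct4 and Sox2 bind DNA as a pair, yet their transcripts were not equal per length. The RPKM of Pou5f1 was 3.39 times that of Sox2 in replicate 1 and 3.20 times in replicate 2. The ratio of Utf1 to Sox2 differed least between the replicates among the 6 pairs, at 3.69 in replicate 1 and 3.68 in replicate 2. With 2 values per pair, this closeness does not show a fixed ratio.

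Between the replicates each of the 4 genes moved by less than most of the 932 genes at 100 RPKM or more. Sox2 and Utf1 lay near the middle of that group. It is not a group of like level, since Utf1 and Pou5f1 rank 37 and 45 in the table. The log2 ratio of replicate 2 to replicate 1 was 0.05 for Sox2, 0.04 for Utf1, -0.03 for Pou5f1 and -0.01 for L1td1, against an SD of 0.09 over the 932 genes at 100 RPKM or more. With replicate 2 centred on the median ratio of detected genes, the sign for L1td1 turned to 0.01, and the other 3 kept theirs. Of those 932 genes 44.2% had a smaller absolute ratio than Sox2, 41.5% than Utf1, 33.3% than Pou5f1 and 9.87% than L1td1. The 4 genes together made up 0.368% of all RPKM of replicate 1 and 0.374% of those of replicate 2.

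Depth limits how finely these levels can be read. Value steps shared by part of the rows point to 2991184 reads behind replicate 1 and 3050685 behind replicate 2. At these totals each kilobase of model held about 1929 and 2028 reads for Utf1, 1769 and 1762 for Pou5f1, 617 and 625 for L1td1, and 522 and 550 for Sox2. For L1td1 a model of 2887 bp gives whole reads in both libraries, 1782 and 1805, with a counting error of 2.37% and 2.35%, although the true model may be a multiple of that length. No length up to the whole locus gave whole reads for Pou5f1, Sox2 or Utf1, so their reads remain estimates. Sox2 is known as a gene without introns. With its locus of 2409 bp as the model, its levels stand for about 1258 and 1326 reads. The counting error of each library alone is then 2.82% and 2.75%. The change of 3.34% between the replicates carries the errors of both libraries and is close to either. The step of 0.685% for L1td1 lies within the counting error of either library. These errors cover counting only. RefSeq names 3 Pou5f1 pseudogenes on the GRCr8 build, none of which has a row, and whether reads passed between them and Pou5f1 was not tested. The library kit does not mark strand, so reads of any transcript overlapping Sox2 would count with it.

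The genes closest in level serve other functions of a growing cell. Likeness was the absolute difference in log2 mean RPKM over the 2 samples, so it says nothing about shared control. Next to Utf1 stood Igfbp2, which encodes an insulin-like growth factor binding protein, at 655 ± 26.5 RPKM and Ywhae, a 14-3-3 protein gene, at 659 ± 22.4 RPKM above it. Mlf2 at 653 ± 24.9 RPKM and the ribosomal protein gene Rpl19 at 647 ± 64.0 RPKM were just below. Pou5f1 lay between the calmodulin gene Calm2 (618 ± 14.4 RPKM) and the elongation factor gene Eef1g (611 ± 3.59 RPKM) above, and Ran (578 ± 18.0 RPKM), of nuclear transport, and Rhoa (563 ± 6.96 RPKM), a small GTPase of the cytoskeleton, below. The values of Ran overlapped those of Pou5f1, with 590.4 and 565 RPKM. L1td1 had the respiratory chain gene Ndufa11 (206 ± 10.7 RPKM) and the ATP synthase gene Atp5l (206 ± 10.3 RPKM) above it, and the splicing factor gene U2af2 (205 ± 1.06 RPKM) and Nolc1 (205 ± 0.814 RPKM), of the nucleolus, below. Sox2 shared its level with the mitotic kinase gene Cdk1 (177 ± 9.56 RPKM), the lactate transporter gene Slc16a1 (178 ± 0.0406 RPKM), Ngfrap1 (177 ± 3.37 RPKM) and RGD1565641 (178 ± 1.30 RPKM).

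Within their protein families Pou5f1 and Sox2 were by far the highest genes. Of 15 POU genes 4 were detected, 26.7%, against 46.4% of all genes in the table. Pou5f1 carried 96.4% of the family's RPKM in one replicate and 96.5% in the other. Pou3f1 (Oct6), a gene of the later epiblast and of nerve cells, was next at 12.3 ± 0.770 RPKM, with 11.8 and 12.9 RPKM in the replicates. Pou2f1, the widely expressed Oct1 gene, was at 7.30 and 5.24 RPKM, and Pou6f1 at 2.70 and 2.64 RPKM. Pou2f3 was at 0.139 and 0.136 RPKM, below the 0.501 and 0.492 RPKM that 3 reads in a model of 2 kb would give. The other 10, among them Pou5f2, the closest relative of Pou5f1 by name, and the neural genes Pou3f2 and Pou4f1, were listed at 0 in both libraries. The POU and SOX genes named below 1 RPKM were named after their values were seen. A listed 0 does not show absence, since genes that every cell uses, such as the ribosomal protein gene Rps6, are also listed at 0.

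The share of detected SOX genes was near that of all genes. Of 17 SOX genes with a row 9 were detected, 52.9%, against 46.4% of all genes. Sox2 carried 60.5% of the family's RPKM in replicate 1 and 64.3% in replicate 2. Sox11, at 41.2 and 35.5 RPKM, and Sox12, at 39.0 and 37.0 RPKM, both of the SoxC group, came next, and their replicate values overlap. Sox4, the third SoxC gene, was at 11.5 and 12.1 RPKM. Sox2 was thus 4.24 and 5.08 times as high as Sox11, while Pou5f1 was 50.2 and 44.9 times as high as Pou3f1. Sox3, the close relative of Sox2 in the SoxB1 group, is listed under a placeholder name and was at 9.12 and 5.73 RPKM. Sox15, whose protein can also pair with Oct4 on DNA, was at 7.93 and 3.57 RPKM, so its replicates differed by more than 2-fold. Sox13 was at 1.88 and 3.50 RPKM and Sox9, a gene of cartilage and other progenitors, at 1.64 and 1.11 RPKM. The endoderm factor Sox17, which can bind with Oct4 on another spacing, was at 1.15 and 1.27 RPKM. Sox7, Sox14, Sox18 and Sox30 were listed at 0 in both libraries.

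**Figure D3:**
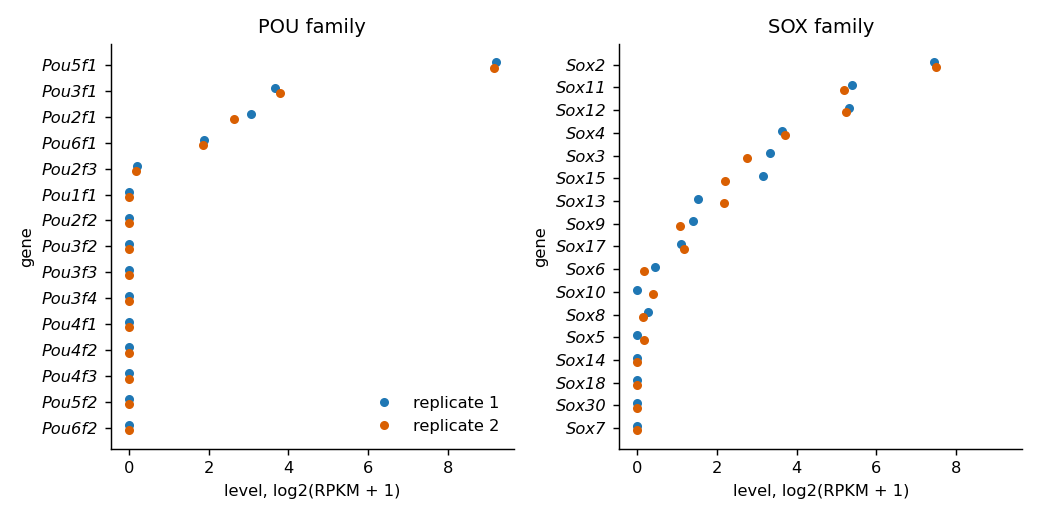
Levels on the log2(RPKM + 1) scale (horizontal axis) of the POU genes and of the SOX genes with a row, with 1 point per library. Pou5f1 stands far to the right of an otherwise low family, with 10 of 15 genes at 0, while Sox2 leads a graded series that runs through Sox11, Sox12 and Sox4.

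Other genes known as targets of Oct4 and Sox2 in mouse stem cells were all detected, and most lay below the 4 genes. All 15 averaged 1 RPKM or more and 12 averaged 10 RPKM or more, where 46.4% and 29.4% of all genes did, and the list median was 106 ± 3.98 RPKM. Trim28, a co-repressor of retroelements, was highest at 919 and 956 RPKM, the only one above Utf1. Tdgf1, a Nodal co-receptor gene, was at 355 and 334 RPKM. Jarid2, a subunit of Polycomb complexes, was at 197 and 198 RPKM and Tcf7l1, a repressor of Wnt targets listed under its old symbol Tcf3, at 149 and 136 RPKM. Only Trim28, Tdgf1 and Jarid2 exceeded Sox2. At the low end Fbxo15, one of the first Oct4 and Sox2 targets to be described, was at 4.05 and 4.18 RPKM, and Spp1, the osteopontin gene, at 3.37 and 2.65 RPKM. Known target genes therefore ranged from 3.01 to 937 RPKM as means, and Utf1 and L1td1 come from the upper part of that range. Jarid2, Sall4, Zfp42 and Dppa4 are listed under placeholder names and were found through their Entrez identifiers.

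Cofactors of the pair spanned a wide range of levels. Of 23 genes for proteins that bind Oct4 or Sox2 or serve them as coactivators 21 were detected and 13 reached 100 RPKM, against 46.4% and 4.0% of all genes, with a list median of 108 ± 0.268 RPKM. Wdr5, a subunit of H3K4 methyltransferase complexes, was highest at 393 and 390.3 RPKM. Rad23b, part of the XPC complex that acts as a coactivator of Oct4 and Sox2, was at 318 and 328 RPKM, while its partner Xpc was at 25.3 and 22.8 RPKM. The poly-ADP-ribose polymerase gene Parp1 (226 ± 3.40 RPKM) and Chd4 of the NuRD complex (211 ± 2.78 RPKM) followed. These 4 lay above Sox2, and none reached Pou5f1. The nuclear import gene Kpna2 was low at 7.75 and 5.65 RPKM, and a gene described as a copy of it had 5.09 and 3.50 RPKM. Hells, a chromatin remodeller of dividing cells, was listed at 0 and 0.207 RPKM, and its listed copy at 0 in both. Nr0b1, which encodes the nuclear receptor Dax1, was the other undetected cofactor, listed at 0 in both libraries and named after its values were seen. Whether near-identical copies cost these genes reads was not tested.

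Enzymes that modify the 2 proteins were all detected, 11 of 11 against 46.4% of all genes, with a list median of 53.8 ± 2.18 RPKM. Ppp1ca, a phosphatase catalytic subunit, was highest at 331 and 345 RPKM. Mgea5, which removes the sugar O-GlcNAc from proteins, was at 131 and 141 RPKM, Carm1, an arginine methyltransferase, at 128 and 126 RPKM (mean 127 ± 2.12 RPKM), and the ubiquitin ligase gene Stub1 at 83.4 and 84.0 RPKM. Lowest were the deubiquitinase gene Otud7b, at 13.8 and 12.2 RPKM, and Setd7, which methylates Sox2, at 6.93 and 4.97 RPKM.

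Genes known to act on Pou5f1 itself were uneven. Of 11 regulators of its promoter and enhancers 7 were detected, 63.6% against 46.4% of all genes, with a list median of 7.23 ± 2.14 RPKM. The activators Sall4 (119 and 127 RPKM), Sp1 (88.1 and 94.8 RPKM) and Esrrb (67.0 and 74.0 RPKM) were highest. Nr6a1, a repressor that shuts Pou5f1 off during differentiation, was at 25.3 and 25.4 RPKM. The retinoic acid receptor gene Rarg was at 2.96 and 4.06 RPKM and Nr5a1 at 0.306 and 0 RPKM. The other 3 were listed at 0 in both libraries, namely Nr5a2, an activator, and Nr2f1 and Nr2f2, repressors of differentiated cells, named here after their values were seen.

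Genes linked to Utf1 and to L1td1 lay below both. Of 8 genes linked to Utf1, through shared chromatin targets or binding, 7 were detected, against 46.4% of all genes, around a median of 41.6 ± 0.685 RPKM. The Polycomb genes Suz12 (62.6 and 66.2 RPKM), Ezh2 (62.3 and 64.1 RPKM) and Eed (44.4 and 45.9 RPKM) were close to each other and to Tbp (46.7 and 46.1 RPKM), the TATA-binding protein gene. Dcp1a, of mRNA decapping, was at 12.4 and 11.3 RPKM, and Cdkn2a, the Arf locus that Utf1 is known to restrain, at 0.685 and 0.672 RPKM. Detection held for all 8 RNA-binding protein genes chosen for L1td1, against the same 46.4%, at a median of 81.1 ± 3.18 RPKM. Lin28a, a let-7 inhibitor found in complexes with L1td1, was at 127 and 130.3 RPKM and Igf2bp1 at 114 and 120 RPKM (116.8 ± 4.10 RPKM). Pum2 was at 83.2 and 90.4 RPKM and Igf2bp2 at 81.7 and 83.4 RPKM, whereas Mov10, a helicase that restrains LINE-1 elements, was at 12.0 and 13.4 RPKM and Lin28b at 7.78 and 6.83 RPKM.

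Trophectoderm genes, which Oct4 is known to hold down in the inner cell mass, ranged from 0 to above 100 RPKM. Of 8 such genes 5 were detected, or 62.5% against 46.4% of all genes, around a median of 2.69 ± 0.477 RPKM. Tfap2c (103 and 109 RPKM), Krt18 (61.3 and 61.1 RPKM) and Eomes (21.6 and 22.3 RPKM) were well above the others. Tfap2c is also known as a gene of the naive state, and Krt18 encodes a keratin of simple epithelia. Krt8 was at 3.61 and 2.95 RPKM, Cdx2, the master factor of the trophectoderm, at 2.45 and 1.76 RPKM, and Elf5 at 0.494 and 0.162 RPKM. Hand1 and Gata3 were listed at 0.

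The labelled cell type was set beside its markers. The lists were chosen with earlier results of these data known, so their counts are no independent check of that label. Of the pluripotent cell markers, Nanog, Esrrb, Zfp42, Tdgf1 and Fgf4 are also among the other target genes above. All 9 pluripotent cell markers were detected, where 46.4% of all genes were, led by Tdgf1, by Zfp42 (121 and 103 RPKM), the Rex1 gene, by Nanog (108 and 103 RPKM) and by Dppa3 (83.6 and 62.5 RPKM). Tfcp2l1 (21.7 and 20.8 RPKM) and Klf4 (6.64 and 7.48 RPKM), both of the naive circuit, were lowest. None of 10 germ layer markers was detected. Of these 8 were listed at 0 in both libraries, as were 8902 of the 23282 genes in the table. T, the brachyury gene, was at 0.847 and 0.332 RPKM and Alb at 0 and 0.120 RPKM. Of 10 fibroblast and feeder cell markers 3 were detected, 30.0% against 46.4% of all genes. Col1a1 was at 3.39 and 6.02 RPKM, Col3a1 at 1.32 and 3.16 RPKM, Thy1 at 1.01 and 1.73 RPKM, Postn at 0.21 and 0.516 RPKM and Pdgfrb at 0.124 and 0 RPKM, while Col1a2, S100a4, Acta2, Twist2 and Lum were listed at 0. Summed, the listed values came to 6.05 RPKM in the first replicate and 11.4 RPKM in the second, small beside any of the 4 genes. Since a listed 0 does not show absence, these sums may be too low. The part of fibroblast signal in the replicate differences of the 4 genes was not tested. In bulk RNA fewer expressing cells and less RNA per cell cannot be told apart.

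**Figure D4:**
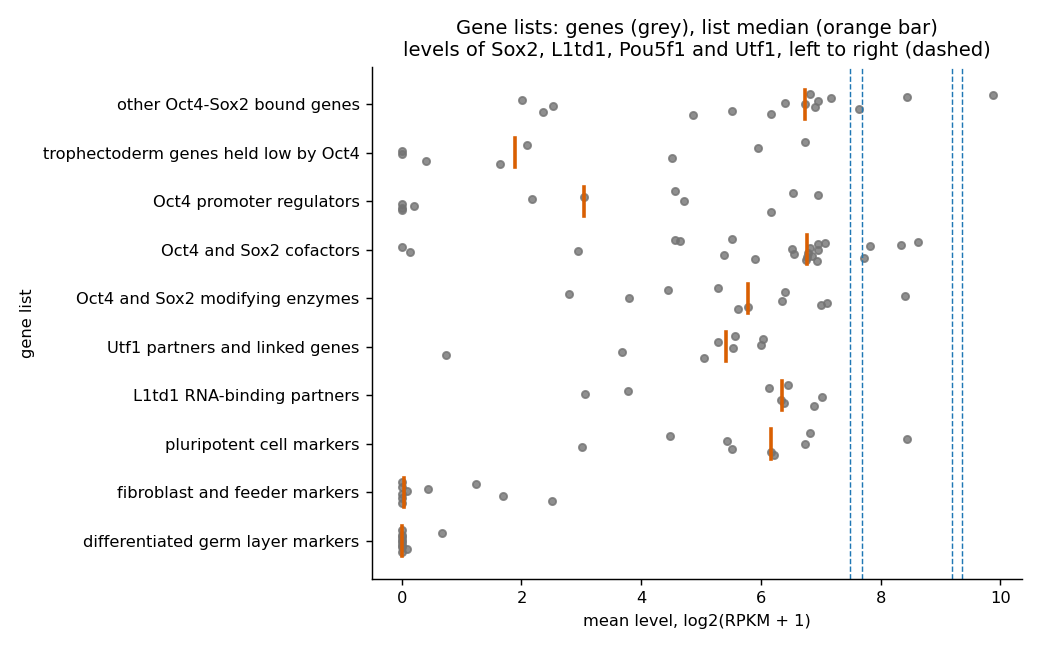
Mean level on the log2(RPKM + 1) scale (horizontal axis) of every gene of 10 lists, with the list median as a bar and the levels of Sox2, L1td1, Pou5f1 and Utf1 as dashed lines. Cofactors and other target genes reach the range of Sox2 and L1td1, only Trim28 lies beyond Utf1, and the germ layer genes lie below the level of 1 RPKM, as do the fibroblast markers other than Col1a1, Col3a1 and Thy1.

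Most genes around the 4 on their chromosomes were far lower, as most genes of the table were. Among the 3 nearest genes of the table on each side of the 4 genes, 24 in all, 17 were detected and 2 reached 100 RPKM, against 46.4% and 4.0% of all genes. Tcf19, a cell cycle gene, lies 266 bp beyond the downstream end of Pou5f1 on the opposite strand and was at 1.20 and 2.74 RPKM. Hcr, 1509 bp away, was at 43.4 and 44.3 RPKM, and Psors1c2 was listed at 0. On the other side the class I histocompatibility gene RT1-CE16 (13.6 and 12.8 RPKM), the Polycomb gene Ring1 (9.86 and 5.99 RPKM) and Hsd17b8 (31.7 and 31.4 RPKM) followed. None of these 6 came within 10-fold of Pou5f1, a gap that most genes would show, since only 29.4% of all genes averaged even 10 RPKM.

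Utf1 lies 3251 bp downstream of Kndc1, on the same strand, which was at 2.03 and 1.04 RPKM. Beyond it Gpr123 and RGD1559985 were listed at 0. To the other side stood LOC680693 (0.797 and 2.09 RPKM), the metallopeptidase gene Adam8 (8.70 and 6.33 RPKM) and Tubgcp2 (65.2 and 58.3 RPKM), of the gamma-tubulin complex. The highest of the 6, Tubgcp2, was 10.6-fold below Utf1.

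L1td1 is flanked by Inadl2, 14485 bp upstream, at 12.5 and 13.2 RPKM, and by Kank4, 16253 bp downstream, at 0.181 and 0.266 RPKM. Tm2d1 was at 22.1 and 23.9 RPKM, and LOC100912024 and LOC100362298 were listed at 0. Usp1, a deubiquitinase gene of DNA repair 222875 bp away, was at 129 and 131 RPKM, closer to L1td1 than any other of its neighbours. Sox2 stands in a wide interval without another gene of this protein-coding table, with Fxr1 597443 bp away on one side and LOC100909397, listed at 0, 701567 bp away on the other. Fxr1, an RNA-binding protein gene, was at 143 and 127 RPKM, so that Sox2 was only 1.32-fold higher in the mean. RGD1560220 (14.2 and 10.2 RPKM), Ccdc39 (8.13 and 7.29 RPKM), LOC100909470 (2.38 and 4.95 RPKM) and the flippase gene Atp11b (22.9 and 22.7 RPKM) were lower. LOC100909470 is described as similar to Fxr1, and whether reads passed between them was not tested.

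**Figure D5:**
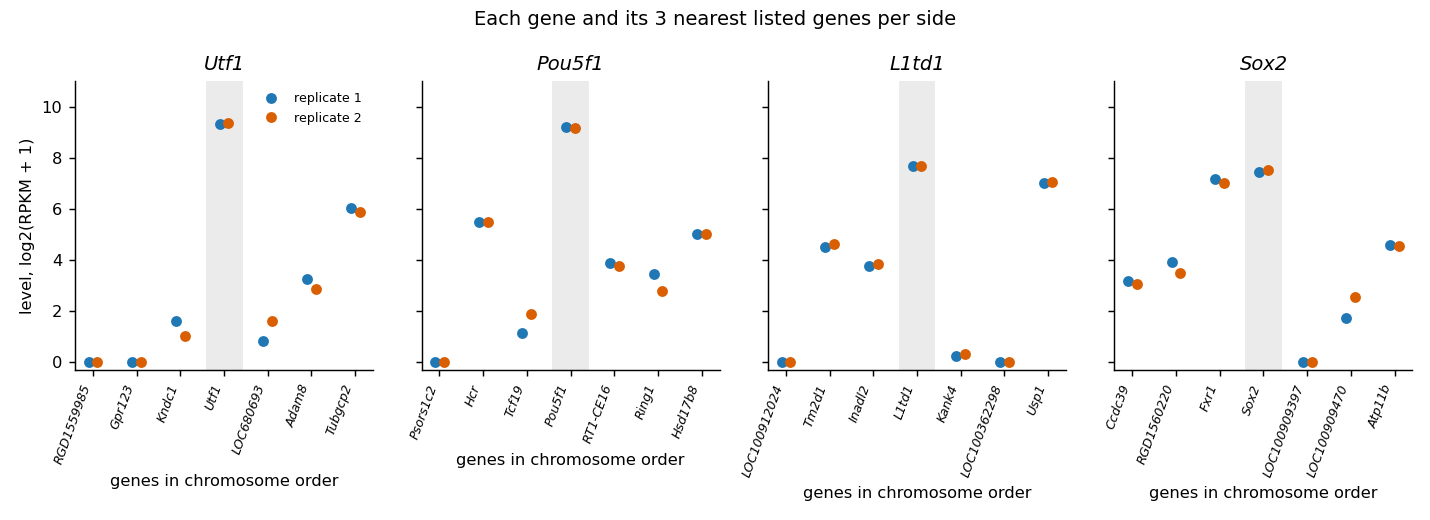
Levels on the log2(RPKM + 1) scale (vertical axis) of each of the 4 genes (shaded) and of its 3 nearest genes of the table on either side, in chromosome order and not to distance, with 1 point per library. The shaded gene is the highest of each panel, by a wide margin for Utf1 and Pou5f1, and Fxr1 and Usp1 come closest to Sox2 and L1td1.

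The deposited table annotates Pou5f1 with 48 gene ontology terms and Sox2 with 71, of which 25 are shared, 52.1% of the terms of Pou5f1 and 35.2% of those of Sox2. Utf1 and L1td1 carry none there. Both stem cell maintenance terms of the table are shared, and their genes are described as groups chosen after the values were seen. Of 35 genes with the somatic stem cell maintenance term 26 were detected, 74.3%, against 46.4% of all genes, and 5 reached 100 RPKM. Another 5 were listed at 0 in both libraries, as were 8902 of the 23282 genes in the table. The median of these 35 genes was 8.81 RPKM with undetected genes included, where that of all genes was 0.539 RPKM. Pou5f1 and Sox2 were the highest of the 35. Of 43 genes with the wider term, stem cell maintenance, 42 were detected, 97.7%, and 10 reached 100 RPKM, where 4.0% of all genes did, around a median of 42.3 RPKM. In that group Pou5f1 was the highest and Sox2 the third, with Tpt1, a growth-related protein gene, between them at 238 ± 12.2 RPKM. Next came the cohesin gene Smc3 at 153 ± 2.60 RPKM and the remodeller gene Smarca4 at 133 ± 5.65 RPKM. The list also holds subunits of the Paf1 complex, such as Ctr9 at 59.1 ± 2.40 RPKM, and of Mediator, such as Med24 at 41.1 ± 1.34 RPKM. Of the 43 genes only Fzd7, a Wnt receptor gene, was listed at 0 in both libraries.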

How the data were processed

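Both wild-type libraries were read from both ends (50 bp). Gene levels were deposited as RPKM in a single table on rn5 positions, and titles tie its columns to the samples. The submitters' processing notes name TopHat 1.4.0 and CASAVA 1.8. How reads were counted, on which annotation release, and what was done with reads of several map positions is not given in the sources used here. The 23716 rows, all protein coding, were summed by Entrez identifier to 23282 genes (420 had more than 1 row). Levels are means ± SD over 2 replicates, with no test, since there is 1 group. Differences use log2(RPKM + 1).

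Read totals were sought between 2500000 and 3500000, and totals outside that range were not tried. Those used made the most rows with a locus under 6000 bp whole (527 of 2700 and 525 of 2688 rows). The relative tolerance was 3e-07. A trial on simulated data had a narrower range of totals and a larger share of whole rows. It therefore does not show these totals to be right. The 4 genes, the 12 lists and the motifs were chosen with earlier results of these data known. List genes were matched by symbol or, for 7 of 137, by identifier through RefSeq's GRCr8 gene table. Sry, Sox1 and Sox21 were not analysed here. Named genes are the 2 on either side of each gene in level and the 3 on either side in position. POU and SOX genes at 1 RPKM or more are named too, and of every other list the 4 highest and 2 lowest above 0. Some genes are named outside this rule, among them Xpc, Hand1, Gata3 and the fibroblast markers listed at 0. Alternatives were the highest row per gene, rescaled libraries, other gene backgrounds, a pseudocount of 0.1, detection minima of 0.3 and 3 RPKM, a centred replicate 2, and each replicate alone. Python 3.11.15, numpy 2.4.6, pandas 2.3.3 and matplotlib 3.10.9 were used.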

Additional observations from a re-analysis of the deposited data

How the results depend on the processing

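Of 110 alternative values 91 stayed within the spread of the replicates, or within 1.5 times for a count, and 19 did not. Some of the 91 could not have moved. Leaving out 1 of 2 replicates always keeps a mean level or log2 difference within its SD. The highest row per gene cannot change the level of genes with 1 row each. The count of 91 is therefore no measure of robustness. Each replicate alone gave the same order of the 4 genes. The other alternatives could not have changed that order. With each library rescaled to a sum of 1000000 the mean levels became 1497 for Utf1, 1337 for Pou5f1, 470.3 for L1td1 and 406 for Sox2, a change of scale only. The share of genes at or above each depends on the genes counted. Among detected genes it was 0.342% for Utf1, 0.416% for Pou5f1, 2.81% for L1td1 and 3.65% for Sox2, and among genes above 0 in both replicates 0.288%, 0.351%, 2.37% and 3.08%. With the highest row per gene it was 0.189% for Pou5f1. Over the replicates taken alone it ranged from 1.67% to 1.77% for Sox2 and was 1.30% in both for L1td1. A pseudocount of 0.1 moved the log2 difference of Utf1 and Sox2 from 1.877 to 1.883, by more than its very small SD. At a minimum of 3 RPKM 1 fibroblast marker remained, and at 0.3 RPKM 1 germ layer marker was counted. No paired analysis was possible because the study holds 1 group. About 3 reads in a 2-kb model set a floor near 0.5 RPKM, so no meaning is given to the order of values below it.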
